A study of Mus musculus with 12 samples.

Results

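A set of 10 genes of the extracellular matrix outside the collagens was followed through 12 RNA sequencing libraries of mouse pancreatic islets and islet cells. They were taken by gene symbol from the deposited expression table, and all 10 were found among its 22793 genes. By role they are fibronectin (Fn1), the matricellular glycoproteins tenascin C (Tnc), thrombospondin 1 (Thbs1), Sparc, periostin (Postn) and osteopontin (Spp1), the large proteoglycan versican (Vcan), and the small leucine-rich proteoglycans biglycan (Bgn), decorin (Dcn) and lumican (Lum). All animals carried RIP-rtTA and TetO-VEGF-A, a pair of transgenes in which the rat insulin promoter drives a doxycycline-dependent activator and the activator switches on VEGF-A. By that design VEGF-A is induced in beta cells. The 4 groups of 3 libraries were macrophages sorted with an antibody to CD11b after 1 week of doxycycline (Dox macrophages), endothelial cells sorted with an antibody to CD31 after 1 week (Dox endothelial cells), whole islets after 1 week (Dox islets) and whole islets from mice not given doxycycline (No Dox islets). The sorted cells came from purified, dispersed islets, and no sorted cells without doxycycline are among the samples. Age, sex and the number of animals behind a library are not given in the labels, so the p-values measure only the spread between libraries, which may be technical.

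Fibronectin is secreted as a soluble dimer and assembled into fibrils by cells through integrins, and it serves as a scaffold on which other matrix proteins are laid down. Matricellular proteins such as tenascin C, thrombospondin 1, Sparc, periostin and osteopontin bind both matrix and cell receptors and are known for being made during remodelling, wound repair and vessel growth. Versican carries long chondroitin sulphate chains and binds hyaluronan, while biglycan, decorin and lumican bind collagen fibrils and set their assembly. In the adult islet this matrix is concentrated around the capillaries and at the islet border.

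The values were the authors' normalized signal, a linear scale with a floor of 1, and every one of the members was above that floor in every library, the lowest value being 10.2. Summed signal per library ran from 17635776 to 25226447, and because read depth is unknown no counting error is given for any value. The sorted fractions held the markers of their labels: 8 macrophage markers summed to 245386 to 264529 in Dox macrophages and 157 to 431 in Dox endothelial cells, and 8 endothelial markers summed to 2068 to 2723 in Dox macrophages and 310455 to 360133 in Dox endothelial cells. Acinar markers (8 genes listed, 7 of them with values), which mark the digestive enzyme cells around the islets, differed widely between sorted libraries. They summed to 394478 in macrophage replicate 2, above that library's macrophage sum, and to 26253 and 1376 in the other macrophage libraries. They summed to 116760 in endothelial replicate 2 and to 5319 and 278 in the other endothelial libraries. Beta cell markers summed to 2541 to 6476 in Dox macrophages and 470 to 629 in Dox endothelial cells, and 5 of the 6 tested were higher in macrophages. The 8 beta cell markers summed to 152108 to 202800 in Dox islets and 286262 to 593929 in No Dox islets. The endogenous Vegfa gene averaged 2027 ± 422 in Dox islets and 3967 ± 637 in No Dox islets (SD, n = 3 each), a log2 difference of -0.98 (SE 0.30, limma adjusted p = 0.0853), and whether the transgene's transcript is counted under that gene is not given in the sources used here. Replicate 1 of Dox islets and replicate 2 of No Dox islets deviated from their groups with the GC content of the genes (Spearman's rho 0.58 and 0.65), while the other 4 islet libraries ran the opposite way (-0.33 to -0.45).

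The comparison of whole islets asks how the matrix genes of the tissue differ after 1 week of doxycycline. No doxycycline-treated mice without the transgenes are among the samples. Effects of VEGF-A induction and of doxycycline itself therefore cannot be told apart. Of the 10 members, 6 were higher in Dox islets and 0 were lower, where 4.33% and 1.41% of the 14443 genes tested were called higher and lower (limma, Benjamini-Hochberg adjusted p under 0.05, 5.74% in either direction). The 6 were Fn1, Tnc, Postn, Sparc, Bgn and Thbs1, with rises of 12.3-fold to 3.03-fold. Vcan, Spp1, Lum and Dcn did not pass the test, and at an unadjusted p under 0.05 the count of lower members was 0 as well. The median log2 difference was 1.74 over the members and 0.11 over all genes, and 9 of the 10 members, against 56.4% of all genes, had a difference above 0. Quantile normalization moved the median of all genes to -0.04 and lowered the higher portion of the calls to 59.8%, against 75.4% as deposited, and still called the same 6 members.

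**Figure D1:**
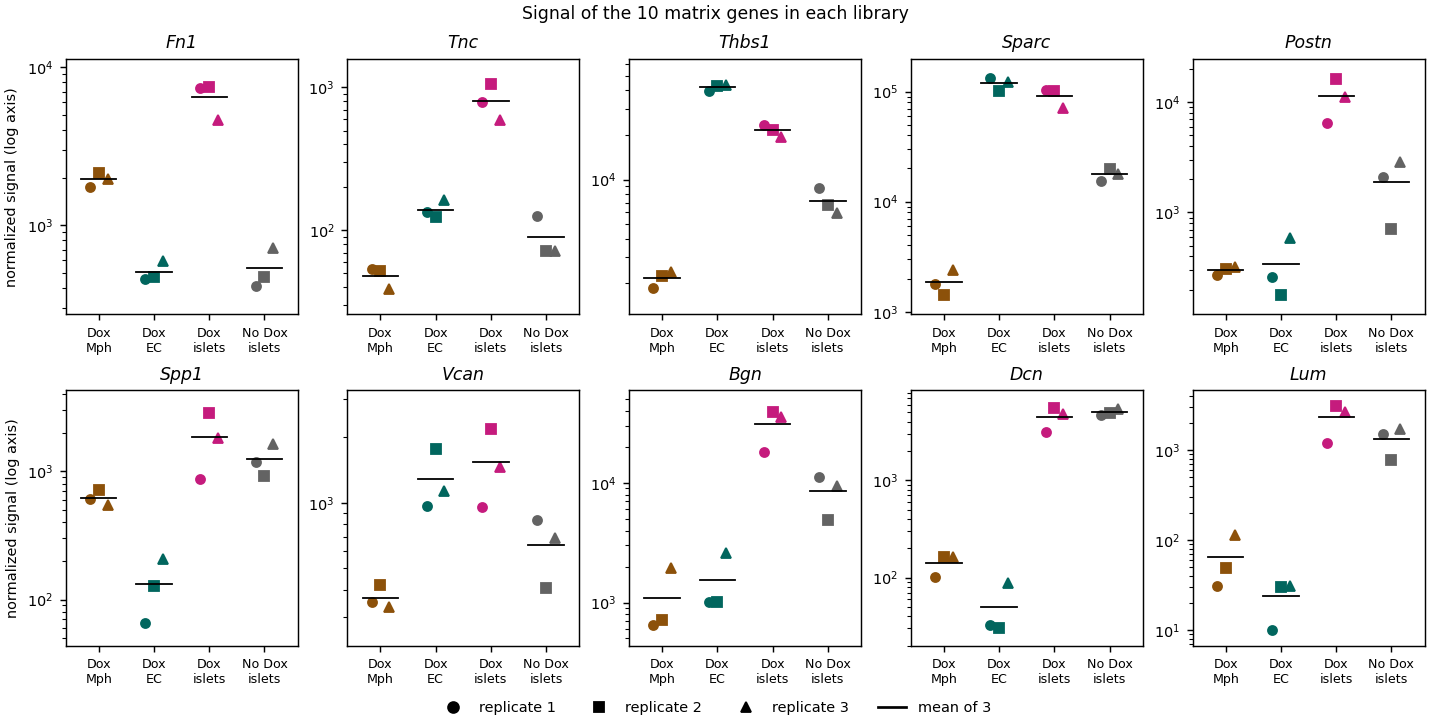
Normalized signal of each of the 10 genes in the 12 libraries, on a log axis, with 1 point per library and a line at the mean of the 3 libraries of a group (Mph, macrophages; EC, endothelial cells). Fn1 and Tnc stand highest in Dox islets, Sparc and Thbs1 stand as high or higher in Dox endothelial cells, and Dcn and Lum lie far below the islets in both sorted fractions.

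**Figure D2:**
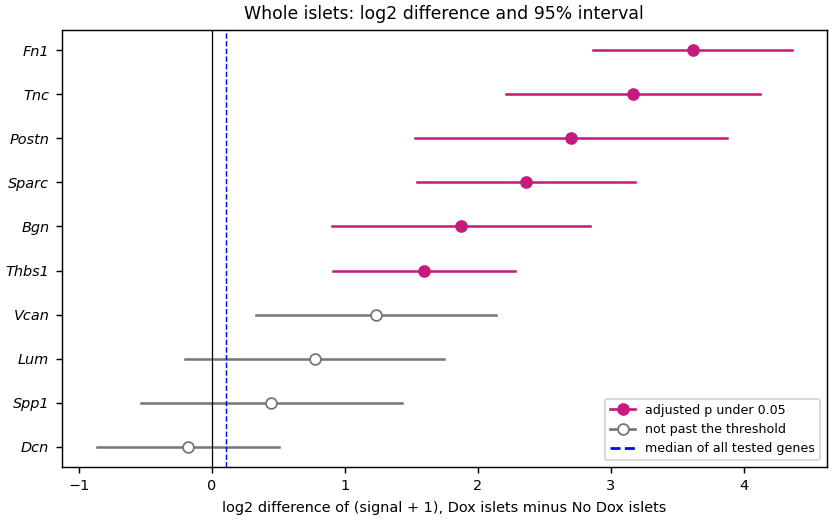
Log2 difference of (signal + 1) between Dox islets and No Dox islets for each gene, with its 95% interval from limma. Filled points passed an adjusted p of 0.05, and the dashed line is the median of all tested genes, 0.11.

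Fn1 had the largest difference among the members. Its signal was 7351, 7497 and 4648 in the 3 Dox islet libraries and 410, 472 and 715 in the 3 No Dox islet libraries. The groups were far apart, and the lowest Dox library stood several times above the highest No Dox library. The log2 difference was 3.62 (SE 0.34, adjusted p = 0.00590), which ranked 31st of the 14443 genes from the largest rise down. Fn1 was the member that stayed past the threshold under all 14 alternative settings, with adjusted p from 2.2e-05 to 0.0405.

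Tnc, whose product is a large glycoprotein best known from embryonic mesenchyme and healing wounds, also rose. It had 786, 1053 and 589 in Dox islets and 126, 71.8 and 71.8 in No Dox islets. No library of a group came near the other group, and the log2 difference was 3.17 (SE 0.43, adjusted p = 0.0119).

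Among the other matricellular genes, Sparc and Thbs1 were the 2 with the tightest groups. Sparc, a collagen-binding glycoprotein, had 102787, 101799 and 71291 in Dox islets and 15461, 19849 and 17929 in No Dox islets. The groups were far apart, and the log2 difference was 2.36 (SE 0.37, adjusted p = 0.0124). Thbs1, whose product binds CD36 and CD47 on vessel cells and is known as an inhibitor of vessel growth and an activator of latent TGF-beta, had 23340, 21550 and 19372 in Dox islets and 8787, 6742 and 5935 in No Dox islets. Its rise of 1.60 on the log2 scale (SE 0.31, adjusted p = 0.0216) was the smallest of the 6.

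Postn, a fasciclin-domain protein that links collagen to fibronectin and tenascin C, varied more between libraries. It had 6432, 16394 and 11086 in Dox islets and 2094, 709 and 2843 in No Dox islets. The groups did not overlap, though the libraries of a group differed by up to 2.55-fold in Dox islets and 4.01-fold in No Dox islets. The log2 difference was 2.70 (SE 0.53, adjusted p = 0.0222). Spp1, an acidic integrin ligand made by many epithelia and by macrophages, did not pass the test. It had 876, 2861 and 1838 in Dox islets and 1186, 930 and 1653 in No Dox islets, and the groups overlapped. Its log2 difference was 0.45 with a 95% interval from -0.54 to 1.43 (adjusted p = 0.661), so a rise of the size seen for Sparc lies outside that interval.

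The proteoglycans did not move alike. Bgn had 18305, 39603 and 35352 in Dox islets and 11242, 4861 and 9511 in No Dox islets. These groups did not overlap, and the log2 difference was 1.87 (SE 0.43, adjusted p = 0.0377). Vcan had 960, 2187 and 1455 in Dox islets and 836, 405 and 690 in No Dox islets. The lowest Dox library was just above the highest No Dox library, and the log2 difference of 1.24 (SE 0.41) had an adjusted p of 0.108. With Vcan, the members whose Dox islet libraries all stood above their No Dox islet libraries were 7, where 15.7% of all genes tested had that order. Lum had 1202, 3046 and 2640 in Dox islets and 1495, 764 and 1698 in No Dox islets. Its groups overlapped, and the log2 difference was 0.77 (SE 0.44, adjusted p = 0.369).

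Dcn was the member with the smallest difference. It had 3154, 5610 and 4836 in Dox islets and 4719, 4914 and 5398 in No Dox islets. The log2 difference was -0.18 with a 95% interval from -0.87 to 0.50 (adjusted p = 0.826), an interval that holds no rise as large as that of any of the 6 called members. Dcn and Lum are neighbouring genes on the same strand of chromosome 10 in mm9, with 47357 bases between them. Dcn lies at 96942245 to 96980777 and Lum at 97028135 to 97035337.

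Promoter sequence from RefSeq was available for 6 of the 10 members: Tnc, Sparc, Postn, Spp1, Vcan and Bgn. Members that rose in Dox islets are shown if their RefSeq start lies within 2 bases of the gene start in the files. These are Sparc, Postn and Bgn. Over the 12 libraries Postn and Bgn varied alike (Pearson r = 0.97), but Sparc less so with Postn (0.41) and Bgn (0.46). The 250 bases before each start are printed to be read side by side. They come from a GRCm38.p6 table, and each matched mm9 exactly and at a single place, chr11:55233583-55233832 on the minus strand for Sparc, chr3:54164779-54165028 on the plus strand for Postn and chrX:70728690-70728939 on the plus strand for Bgn. Capitals mark matches, on either strand, to the TATA box (TATAAA), the GC box (GGGCGG), the CCAAT box, the AP-1 site (TGANTCA), the TEAD site (GGAATG) or the CArG box.
Sparc: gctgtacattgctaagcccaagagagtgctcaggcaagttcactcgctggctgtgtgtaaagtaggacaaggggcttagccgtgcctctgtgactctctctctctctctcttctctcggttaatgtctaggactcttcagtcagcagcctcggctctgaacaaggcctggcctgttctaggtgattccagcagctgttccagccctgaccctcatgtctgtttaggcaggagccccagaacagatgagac
Postn: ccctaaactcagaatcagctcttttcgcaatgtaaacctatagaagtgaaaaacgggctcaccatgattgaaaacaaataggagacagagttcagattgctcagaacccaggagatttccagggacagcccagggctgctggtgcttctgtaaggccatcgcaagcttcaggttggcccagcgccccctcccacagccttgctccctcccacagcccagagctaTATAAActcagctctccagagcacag
Bgn: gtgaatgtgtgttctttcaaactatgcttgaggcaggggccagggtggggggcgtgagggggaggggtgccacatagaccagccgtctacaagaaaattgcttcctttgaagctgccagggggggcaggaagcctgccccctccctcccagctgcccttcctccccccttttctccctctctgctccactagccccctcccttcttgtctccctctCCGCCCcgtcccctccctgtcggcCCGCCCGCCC
Postn held TATAAA with its first base 26 bases before the start, and TATAAA occurs on either strand in 12.4% of the 32851 windows of this length in the table. Bgn held 3 matches to GGGCGG, all on the opposite strand and 2 of them overlapping, a sequence found in 32.7% of windows. Sparc held none of the 6 motifs, and no motif was shared by the 3 windows.

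Marker genes of stromal and vessel cells moved with the members. In bulk tissue, more cells of a type and more RNA per cell cannot be told apart. Summed pericyte and smooth muscle markers (9 genes, 4 of them called higher and 0 lower) ran from 209123 to 424462 in Dox islets and from 50352 to 124353 in No Dox islets, with Rgs5 making up most of the sum. Summed fibroblast markers (8 genes, 7 tested, 2 called higher and 0 lower) ran from 45090 to 106333 in Dox islets and from 11806 to 35035 in No Dox islets. The collagen genes Col1a1, Col1a2 and Col3a1 made up most of that sum. Of the 7 tested, 6 had a log2 difference above 0. Dpt went the other way, averaging 1071 in Dox islets and 1334 in No Dox islets, and Pdgfra averaged 999 and 702. Endothelial markers (8 genes, 6 called higher) summed to 127442 to 166384 in Dox islets and 49713 to 55151 in No Dox islets, and macrophage markers (8 genes, 2 called higher) to 7799 to 16398 in Dox islets and 2128 to 5656 in No Dox islets. No gene of the fibroblast, pericyte, endothelial or macrophage lists was at the floor in all libraries of an islet group. The part of these cells in the members' rise was not tested. Acinar marker sums ran from 93966 to 285270 in Dox islets and from 32732 to 103835 in No Dox islets, so the ranges overlapped. All 7 tested acinar markers had a log2 difference above 0, with a median of 1.53. Of them 0 were called, and 4 were higher at an unadjusted limma p under 0.05. The part of acinar cells in the members' rise was not tested either.

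**Figure D3:**
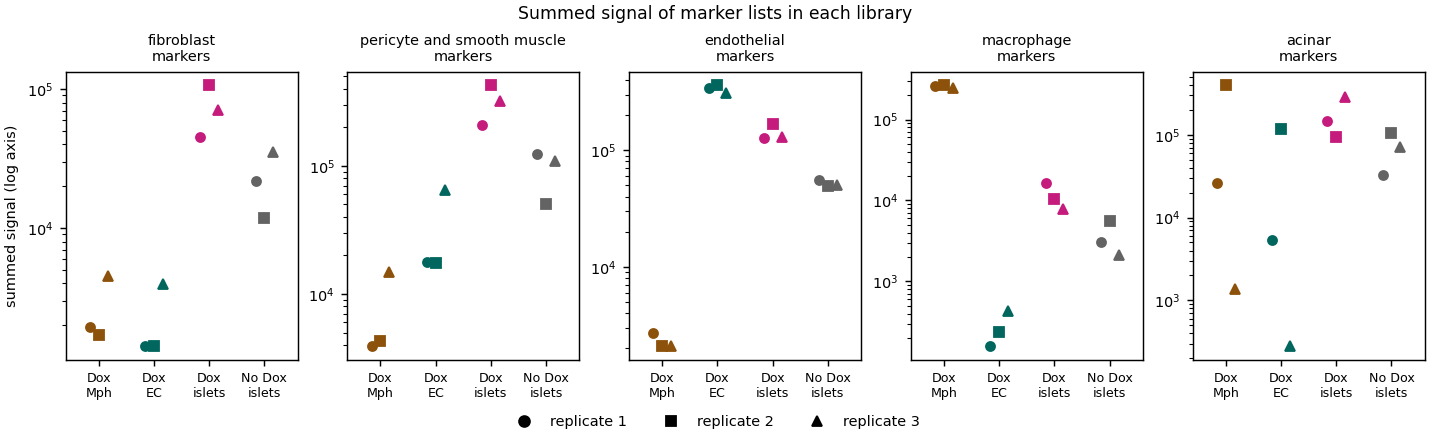
Summed signal of 5 marker lists in each library, on a log axis, with 1 point per library. Fibroblast, pericyte, endothelial and macrophage markers stand higher in Dox islets than in No Dox islets, and among the sorted libraries replicate 3 of each fraction holds the highest pericyte and fibroblast sums.

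Within the islet groups the members fell into sets that varied together. In Dox islets, replicate 1 was the lowest library for 6 members (Postn, Spp1, Vcan, Bgn, Dcn and Lum) and the highest for Thbs1 and Sparc, while replicate 3 was the lowest for the other 4. In No Dox islets, replicate 2 was the lowest for 5 members (Postn, Spp1, Vcan, Bgn and Lum) and the highest for Sparc. Of the 6 members lowest in Dox islets replicate 1, Postn, Spp1, Vcan, Dcn and Lum had a GC content of 42.0 to 44.1%, and Bgn had 52.3%. Fn1, Tnc, Thbs1 and Sparc had 49.9 to 53.5%. The part of GC content in these sets was not tested. Dox islets replicate 1 and No Dox islets replicate 2 are the 2 libraries that followed GC content, and they also held the lowest fibroblast marker sums of their groups. Their pericyte sums were lowest through Rgs5, which made up 81.4% of the sum in Dox islets replicate 1 and 78.2% in No Dox islets replicate 2, while 6 of the 9 pericyte markers, Pdgfrb and Cspg4 among them, were at their highest there. Without both of them, 5 of the 6 members were still called, where 2.09% of genes were called, and Thbs1 had an adjusted p of 0.0507.

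The islet calls other than Fn1 rest on few libraries and on the filter for low values. Without replicate 2 of Dox islets, Fn1 was called (adjusted p = 0.0405) and the other 5 had adjusted p of 0.0943 to 0.176, with 5 genes called in all (0.0346%). Without replicate 3 of Dox islets, Fn1, Tnc and Sparc were called among 87 genes (0.602%), and Thbs1, Postn and Bgn had 0.0823, 0.0705 and 0.130. With no filter, 97 genes (0.427%) were called and Fn1 was the member among them, the other 5 having adjusted p of 0.0544 to 0.215. Leaving out a No Dox islet library ended the call of Bgn each time (0.0568 to 0.0653), of Postn without replicate 1 (0.0588) and of Thbs1 without replicate 3 (0.0513). All 6 differences kept their sign in every one of these fits.

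Setting the sorted fractions side by side asks in which fraction each transcript stands higher after doxycycline. Between macrophages and endothelial cells 59.1% of 13726 genes were called, 27.7% higher and 31.5% lower in macrophages. Of the members, 3 were higher in macrophages (Spp1, Fn1 and Dcn) and 4 were lower (Sparc, Thbs1, Vcan and Tnc), so 7 of 10 were called where most genes were. Without replicate 2 of both fractions, the libraries with the highest acinar sums, 6 of the 7 were called where 44.2% of genes were, and Dcn had an adjusted p of 0.182. Some markers of other islet cells were also higher in macrophages: 2 of 6 tested fibroblast, 2 of 4 ductal and 3 of 4 other endocrine markers, with 0 lower. Of the 9 pericyte and smooth muscle markers, 0 were higher and 5 lower. The part of RNA from other cells in the members' values was not tested. The members summed to 0.0338 to 0.0452% of all signal in Dox macrophages and 0.616 to 0.771% in Dox endothelial cells. Sparc (mean 118592) and Thbs1 (mean 41806) made up most of the endothelial sum.

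Sparc and Thbs1 had the largest differences of the members. Sparc had 1798, 1425 and 2411 in macrophages and 131417, 101860 and 122500 in endothelial cells. Macrophages stood 64.2-fold lower, with a log2 difference of -6.01 (SE 0.19, adjusted p = 1.2e-07). Thbs1 had 1859, 2241 and 2390 in macrophages and 39700, 42563 and 43157 in endothelial cells, a log2 difference of -4.28 (SE 0.11, adjusted p = 5.7e-08). Both are genes that endothelial cells are known to make in culture. Vcan had 351, 419 and 332 in macrophages and 965, 1761 and 1134 in endothelial cells, with a log2 difference of -1.76 (SE 0.24, adjusted p = 0.000319). Tnc was low in both, with 53.4, 52.3 and 38.9 in macrophages and 134, 123 and 162 in endothelial cells, and its log2 difference was -1.52 (SE 0.32, adjusted p = 0.00375).

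Fn1 and Spp1 went the other way. Fn1 had 1745, 2138 and 1962 in macrophages and 458, 472 and 596 in endothelial cells. The groups were well apart, with a log2 difference of 1.94 (SE 0.15, adjusted p = 1.4e-05). Spp1 had 605, 722 and 551 in macrophages and 65.5, 127 and 206 in endothelial cells, a log2 difference of 2.37 (SE 0.40, adjusted p = 0.00115). Osteopontin is a known product of activated macrophages.

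Dcn, Lum, Bgn and Postn were far below their islet levels in both fractions, and their highest values there mostly came from replicate 3. Dcn had 101, 162 and 162 in macrophages and 32.6, 30.0 and 87.3 in endothelial cells, a log2 difference of 1.63 (SE 0.48, adjusted p = 0.0198). That call was lost without macrophage replicate 2 (0.0621), without endothelial replicate 1 (0.0718), without endothelial replicate 2 (0.0766) and with no filter (0.0764). Lum had 31.1, 49.5 and 115 in macrophages and 10.2, 30.1 and 31.1 in endothelial cells, and Bgn had 654, 712 and 1929 in macrophages and 1011, 1010 and 2610 in endothelial cells. Neither was called without a replicate block (log2 differences 1.36 and -0.52, adjusted p = 0.0979 and 0.398), and both were called with the replicate number as a block (adjusted p = 0.0320 for Lum and 0.00656 for Bgn, with 63.2% of genes called). Postn had 270, 306 and 323 in macrophages and 259, 180 and 585 in endothelial cells, and its log2 difference of -0.01 turned positive under median ratio rescaling (0.08) and without macrophage replicate 1 (0.06) or endothelial replicate 3 (0.47). Without replicate 3 of both fractions the same 7 members and Bgn (adjusted p = 0.00824) were called, where 63.0% of genes were.

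Replicate 3 of each fraction was the library where pericyte and fibroblast markers stood highest. The pericyte and smooth muscle sum was 14779 in macrophage replicate 3, against 3892 and 4259 in the other macrophage libraries. It was 64556 in endothelial replicate 3, against 17702 and 17576 in the other endothelial libraries. Rgs5 made up 83.9% of the sum in macrophage replicate 3 and 89.8% in endothelial replicate 3, and 7 of the 9 markers in macrophages and all 9 in endothelial cells were highest in that replicate. The fibroblast sum was 4551 against 1931 and 1701 in macrophages, and 3932 against 1413 and 1406 in endothelial cells, with 5 of the 8 markers highest in replicate 3 of each fraction. No pericyte marker was at the floor in all 3 libraries of a fraction, and of the fibroblast markers Clec3b was at the floor in all macrophage libraries. Replicate 3 was the highest endothelial library for 8 of the 10 members and the highest macrophage library for 6, and the part of stromal RNA in these values was not tested.

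Set against whole Dox islets, the fractions separate the members further. The comparisons of macrophages and of endothelial cells with Dox islets share the same islet libraries, so they are given side by side and not as independent results. In macrophages all 10 members were lower than in Dox islets, where 52.7% of 14479 genes were called, 31.4% lower and 21.3% higher. In endothelial cells 7 were lower, Thbs1 was higher, and Sparc and Vcan were not called, where 33.1% of 14218 genes were called, 21.6% lower and 11.5% higher. Under quantile normalization the median of all genes moved from -0.20 to 0.12 for macrophages and from 0.00 to 0.28 for endothelial cells, and the higher share of called genes from 40.3% to 52.2% and from 34.7% to 58.6%, with the same members called.

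**Figure D4:**
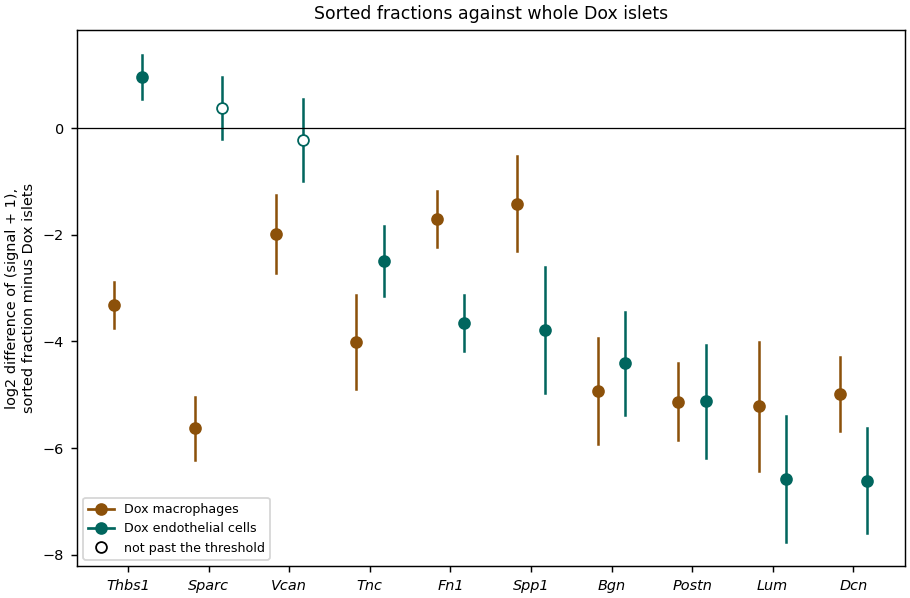
Log2 difference of (signal + 1) between each sorted fraction and whole Dox islets for the 10 genes, with 95% intervals from limma. Thbs1, Sparc and Vcan lie near or above 0 in endothelial cells, and Bgn, Postn, Lum and Dcn lie below -4 in both fractions.

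Thbs1 was 1.96-fold higher in endothelial cells than in Dox islets, a log2 difference of 0.97 (SE 0.18, adjusted p = 0.00350), and 3.31 lower on the log2 scale in macrophages (log2 difference -3.31). Sparc differed by 0.38 in endothelial cells, with a 95% interval from -0.20 to 0.96 (adjusted p = 0.285), and by -5.63 in macrophages. Vcan differed by -0.22 in endothelial cells, with an interval from -0.99 to 0.55 (adjusted p = 0.639), and by -1.99 in macrophages (adjusted p = 0.000677). Without replicate 2 of Dox islets the endothelial difference of Vcan was 0.07. These were the members whose endothelial level came nearest to the level of the whole tissue.

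Fn1, Tnc and Spp1 were higher in whole Dox islets than in either fraction. Fn1 differed from Dox islets by -1.71 in macrophages (adjusted p = 0.000239) and by -3.65 in endothelial cells (adjusted p = 1.4e-05). Tnc differed by -4.02 in macrophages and -2.49 in endothelial cells (adjusted p = 3.3e-05 and 0.000271). Spp1 differed by -1.42 in macrophages (adjusted p = 0.0136) and -3.78 in endothelial cells (adjusted p = 0.000649). The macrophage call of Spp1 was lost without replicate 3 of Dox islets (0.0559) and with no filter (0.0858).

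Postn, Bgn, Dcn and Lum were far lower than Dox islets in both fractions. Postn differed from Dox islets by -5.13 in macrophages and -5.12 in endothelial cells, and Bgn by -4.93 and -4.41. Dcn differed by -4.98 in macrophages and -6.61 in endothelial cells, and Lum by -5.22 and -6.58. In fold these 4 genes stood 21.2-fold to 97.6-fold below Dox islets, and their adjusted p were at most 9.8e-05. The summed fibroblast markers were 1701 to 4551 in macrophages, 1406 to 3932 in endothelial cells and 45090 to 106333 in Dox islets. These members and the fibroblast sum, carried mostly by collagen genes, were low in the same libraries, and so were other marker lists. Median log2 differences from Dox islets in macrophages and endothelial cells were -6.19 and -8.37 for beta cell markers. For pericyte and smooth muscle markers they were -4.44 and -2.98. Macrophage markers were higher than Dox islets in macrophages (median 4.65), and endothelial markers in endothelial cells (1.37). The source of these members' transcripts was not tested.

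The order of the 4 groups differed between members. For Fn1 the order was Dox islets, Dox macrophages, No Dox islets and Dox endothelial cells, and the last 2 overlapped. For Tnc the order was Dox islets, Dox endothelial cells, No Dox islets and Dox macrophages, and the middle 2 overlapped. Thbs1 and Sparc shared the order Dox endothelial cells, Dox islets, No Dox islets and Dox macrophages, in which the first 2 overlapped for Sparc and none for Thbs1. Postn and Bgn ran from Dox islets to No Dox islets and then to the sorted cells, whose ranges overlapped. Spp1 and Lum ran from Dox islets to No Dox islets, macrophages and endothelial cells, with overlap between the islet groups, and Dcn had the same last places with the overlapping islet groups the other way round. For Vcan, Dox islets overlapped with Dox endothelial cells and No Dox islets with Dox macrophages.

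Levels of different genes can be compared only per length. Whether the deposited values already allow for gene length is not stated. Per kilobase of annotated exon, Sparc had the highest mean of the members in all 4 groups. It had 558 ± 148 signal per kb in Dox macrophages, 35222 ± 4503 in Dox endothelial cells, 27312 ± 5318 in Dox islets and 5271 ± 653 in No Dox islets (SD, n = 3 each). In Dox macrophages Spp1 was next, at 380 ± 53, and these 2 did not differ beyond their spread. Before division by length, Thbs1 (2163) and Fn1 (1948) stood above Sparc (1878) in Dox macrophages. In Dox islets Bgn was next, at 8725 ± 3163, and Thbs1 at 3527 ± 327. In No Dox islets Dcn was next, at 2587 ± 180, with Bgn at 2396 ± 926, and these 2 did not differ beyond their spread. Fn1 ranked 8th of the 10 per kilobase in either islet group, at 779 ± 192 in Dox islets and 63.8 ± 19.3 in No Dox islets. Together the members took 0.640 to 0.835% of all signal in Dox islets and 0.203 to 0.225% in No Dox islets.

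Annotation bears on a pair of these values. In mm9, Fn1 spans 71632094 to 71699774 of the minus strand of chromosome 1, and 292 of its exon bases overlap an exon annotated on the other strand as Apol7d. Tnc spans 63620819 to 63681760 of the minus strand of chromosome 4, and 176 of its exon bases overlap 8030451A03Rik. Use of strand is not stated for these values, so reads in those bases cannot be assigned to a strand. The other 8 members shared no exon bases with another gene. Thbs1 lies on chromosome 2 from 117937612 to 117952869 (plus strand), Spp1 on chromosome 5 from 104864137 to 104870069 (plus) and Vcan on chromosome 13 from 89794915 to 89882117 (minus).

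Genes with the most similar pattern were taken as the 2 highest Pearson correlations with each member over the 12 libraries, among 5678 genes of at least moderate mean signal. The libraries fall into 4 groups and are not independent points, so the values describe likeness and are not tested. Thbs1 was most like Adamts9, a secreted protease that cleaves versican, and Cdh13, a cadherin of vessel walls (r = 0.9968 and 0.9965). Sparc was most like Prkcdbp and the basement membrane collagen gene Col4a2 (0.99 each). Postn was most like the collagen genes Col1a2 (0.98) and Col8a1 (0.98), and Bgn like Col1a2 (0.99) and Lhfp (0.99). Dcn was most like Scn9a, a sodium channel gene, and Gjd2, a gap junction gene (0.996 and 0.992). Lum was most like Cyp1b1 and Spon1 (0.98 each), Tnc like Sept8 (0.97) and Sept11 (0.92), Spp1 like Prkar2b (0.97) and Cp (0.95), and Vcan like Fut11 (0.97) and Ppm1a (0.96). Fn1 had no close match, its nearest genes being Ccni (0.86) and Timp2 (0.84). Among the members, Dcn and Lum (0.98), Thbs1 and Sparc (0.97) and Postn and Bgn (0.97) were the most alike pairs.

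Related genes of the pathway were read from 5 lists, and in whole islets their called members were higher in Dox islets with a single exception. Among all genes tested, 4.33% were called higher and 1.41% lower, and each list's count is read against those shares. The lists were chosen with earlier results of these data known, so counts above those shares describe the lists and do not test them. Of 31 relatives of the members, 21 were tested, 7 were higher and 0 lower, with a median log2 difference of 0.17. They were Thbs4 (5.05), Dmp1 (4.73), Fstl1 (2.24), Aspn (2.23), Sparcl1, Thbs2 and Tgfbi. Fstl1 and Sparcl1 belong to the Sparc family, and Tgfbi is the fasciclin-domain relative of periostin. Thbs4 had 121, 123 and 63.3 in Dox islets and 2.37, 1.00 and 2.99 in No Dox islets, so it passed the filter for low values through Dox islets alone, had to differ and adds nothing to the count.

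Receptors of these proteins had a median of 0.82, with 8 of 20 higher and 0 lower. The integrin chains Itga5 (2.56), the partner of beta 1 in the main fibronectin receptor, Itgb3 (2.30), Itga8 (2.05), Itga9 and Itgb1 were among them, as were the thrombospondin receptor Cd36, the scavenger receptor Stab1 (2.28), which takes up Sparc, and Tlr4, a receptor for biglycan and tenascin C. Itga5 had 3200, 2374 and 1638 in Dox islets and 426, 519 and 275 in No Dox islets, with no overlap (SE 0.37, adjusted p = 0.0124).

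Elastic fibre and matrix assembly genes had a median of 0.93, with 7 of 24 higher and 0 lower. Mfap5 (2.68), the fibrillin gene Fbn2 (2.53), the collagen chaperone Serpinh1 (2.40) and the cross-linking enzyme Lox (2.39) had the largest differences, and Fbn1, Loxl3 and Loxl2 were also higher. Proteases known to cleave versican, decorin or fibronectin had the highest median, 1.99, with 6 of the 10 tested higher and 0 lower, of 13 listed. Those were Mmp13 (3.50), Mmp14 (2.84), Adamts4 (2.58), Adamts9 (2.20), Adamts5 and Mmp12. Mmp14, a membrane-bound collagenase, had 1511, 852 and 688 in Dox islets and 93.6, 165 and 152 in No Dox islets. Of 10 tested partners of hyaluronan and versican, of 11 listed, Has2, which makes hyaluronan, was higher (4.67, and it also passed the filter through Dox islets alone), as was the link protein gene Hapln1 (1.76), while Hapln4 was lower (-1.86). The median of that list was 1.14.

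Over the 5 lists, 30 genes were called higher, Thbs4 and Has2 included, and 1 lower in Dox islets, and these counts depend on the same libraries and filter as the members'. Without replicate 2 of Dox islets limma called 0 of them, where 0.0346% of all genes were called, with 37 higher and 4 lower at an unadjusted p under 0.05. Without replicate 3 of Dox islets 7 were called higher (0.602% of all genes called), with no filter 6 (0.427%), and without the 2 libraries that followed GC content 18 (2.09%), with 0 lower each time. At an unadjusted p under 0.05, all libraries and the filter in place, 3 relatives and 1 receptor were lower in Dox islets. Fibroblast, pericyte, endothelial and macrophage marker sums moved with these lists as with the members, and their part was not tested.

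**Figure D5:**
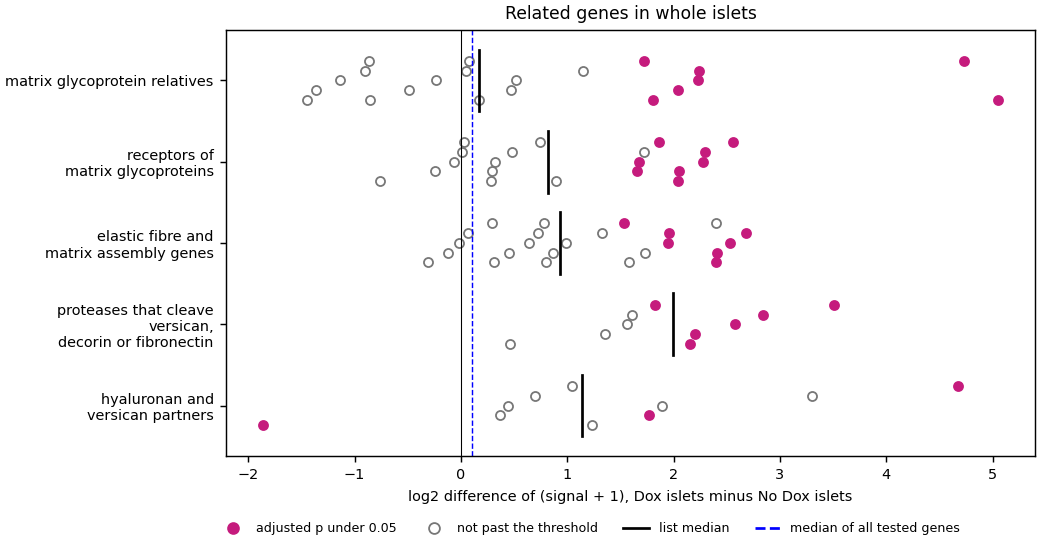
Log2 difference of (signal + 1) between Dox islets and No Dox islets for the tested genes of the 5 lists, with 1 point per gene and a black line at each list's median. Filled points passed an adjusted p of 0.05, and apart from Hapln4 they all lie to the right of 0.

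The fractions held different portions of these lists. Between macrophages and endothelial cells, where 27.7% of all genes were higher and 31.5% lower in macrophages, 13 of 19 tested receptors were higher in macrophages and 5 were lower. Sdc4 (8.53) and Cd44 (8.03), which bind fibronectin and hyaluronan or osteopontin, and Lrp1 (6.03) were higher in macrophages, and Itga3 was lower (-6.22). Proteases divided evenly, with 5 higher and 5 lower of 11 tested. Mmp12 (11.62), Mmp13 (10.96) and Mmp9 were higher in macrophages, all 3 having passed the filter for low values through macrophages alone, so that they had to differ, and Adamts5 (-7.31) and Adamts1 (-6.26) lower. Mmp13 had 17292, 15613 and 11423 in macrophages and 6.15, 3.01 and 12.5 in endothelial cells. Of the relatives, 3 of 13 tested were higher and 7 lower in macrophages, with Tgfbi (4.71) and Tnr (4.51) among the higher and Dmp1 (-7.42) and Sparcl1 (-6.64) among the lower. Tnr passed the filter through macrophages alone and Dmp1 through endothelial cells alone. Of the assembly genes, 5 of 19 were higher, near the share of all genes, and 8 lower, led by Emilin2 (7.06) and by Fbln2 (-7.76), Ltbp1 (-6.22) and Serpinh1 (-5.46). Emilin2 and Mfap4, both higher, passed the filter through macrophages alone. Of the hyaluronan partners, 2 of 8 were higher and 6 lower, led by Hapln1 (-8.14), Has1 (-4.13), Has3 (-4.06) and Hyal2 (-3.40).

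Against Dox islets, 31.4% of all genes were lower and 21.3% higher in macrophages, and 21.6% lower and 11.5% higher in endothelial cells. In macrophages 17 of 20 relatives and 17 of 24 assembly genes were lower, of which 4 relatives and 2 assembly genes passed the filter for low values through Dox islets alone and so had to differ, and Tgfbi was the relative that was higher (3.77). In endothelial cells 16 of 20 relatives and 13 of 24 assembly genes were lower, of which 8 relatives and 6 assembly genes passed through Dox islets alone, with Sparcl1 (0.78) and Fbln2 (1.41) the higher ones. Receptors were 10 higher and 6 lower of 20 in macrophages, where Tlr2 (4.51) was the highest, and 4 higher and 10 lower of 20 in endothelial cells, where Itga3, Itga5, Itgb3 and Stab1 were the higher ones. Sdc1, lower in macrophages, passed through Dox islets alone. Of the proteases, Mmp9, Mmp12 and Mmp13 were higher in macrophages and 6 of the 12 tested were lower, while Adamts1 (0.84) and Adamts9 (1.36) were higher in endothelial cells and 5 of the 10 tested were lower, Mmp12 and Mmp13 of them through Dox islets alone. Among the hyaluronan partners, 0 were higher and 6 of 10 lower in macrophages, and Has1 (1.64), Has3 (1.94) and Hapln1 (1.03) were higher and 4 of 10 lower in endothelial cells. Has2 was lower in both fractions and Hapln4 in endothelial cells, each having passed through Dox islets alone. Lox, which was higher in Dox islets than in No Dox islets, differed from Dox islets by -5.75 in macrophages and -5.13 in endothelial cells.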

How the data were processed

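RNA from whole islets or sorted cells was amplified before library preparation and sequenced on an Illumina instrument, per the labels' protocols. The authors deposited a table of normalized signal values, and how they were normalized, counted or assigned to a strand is not stated there. The submitters' processing notes name TopHat2 2.0 and mm9. Values are linear with a floor of 1.

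For 76 symbols with several entries the highest mean was kept, leaving 22711 genes. Coordinates come from GENCODE M1, where 22382 of 22742 gene IDs had the same positions as in the files. Values were tested as log2(signal + 1) with limma 3.58.1 in R 4.3.3, with 6 libraries per fit, a variance trend and Benjamini-Hochberg adjustment over all tested genes. Genes needed a signal of 15.5 (40th percentile of the table) in at least 3 of the 6 libraries, and all 10 members passed in each comparison. The added 1 understates changes of genes near the floor. The test was run on simulated data with independent noise for each gene and library, and no result is drawn from that run. Such noise leaves out shared deviations, like those of the islet libraries with GC content.

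Macrophage and endothelial libraries of the same number deviated together (correlations 0.23, 0.41 and 0.36), so a fit with the replicate number as a block is given where it changed a call. The labels do not state this pairing. All members were named, with up to 4 of the called genes of each list with the largest differences, and every called gene where 5 or fewer were called. Some further called genes of the lists (Sparcl1, Thbs2, Tgfbi, Itga9, Itgb1, Cd36, Tlr4, Fbn1, Loxl3, Loxl2, Adamts5 and Mmp12 in islets, and those that complete counts against Dox islets) were named after their values were seen. Members, lists and tests were chosen with earlier results of these data known. In the comparisons with Dox islets, not every gene of the naming rule is printed.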

Additional observations from a re-analysis of the deposited data

How the results depend on the processing

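The 6 islet rises and all calls against Dox islets kept their direction under every alternative run. The number of members called in islets ran from 1 to 6 when single libraries were left out, was 1 with no filter, and was 5 to 7 elsewhere. Vcan passed when the 4 groups were fitted together (adjusted p = 0.0401) and with the GC trend removed from each library, a setting chosen after seeing the data (0.0356), and Bgn did not under median ratio rescaling (0.0503). The 829 genes called in islets became 97 with no filter (81 shared), 1606 with the 4 groups together, 302 without the 2 libraries that followed GC content, 1675 with the GC trend removed, and 5 to 815 without single libraries. Median ratio rescaling and GC removal brought the share of higher calls to 64.1% and 59.1%. In other comparisons, leaving out single libraries gave 6907 to 8820 genes and 6 to 7 members between the fractions, 6216 to 8844 genes and 9 to 10 members for macrophages, and 3307 to 8167 genes and 8 members for endothelial cells against Dox islets (8167 without Dox islets replicate 1). Signs turned for 3 log2 differences that had not passed the threshold. Dcn in islets ran from -0.357 to 0.0582 over single libraries left out and was 0.0454 without the GC libraries, Postn between the fractions ran from -0.381 to 0.468 and was 0.0771 under median ratio rescaling and 0.413 without replicate 3 of both, a setting chosen after seeing the data, and Vcan in endothelial cells against Dox islets ran from -0.520 to 0.0742. The causes were not tested. The replicate block gave 679 genes and the same 6 members in islets, where same-numbered libraries did not deviate together (-0.25, -0.54 and 0.16), 9 members between the fractions, and changed no other member's call. Read depth is unknown, so it cannot be said which low values it limits.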
